A study of Mus musculus with 6 samples.

Results

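The genes described here encode the working parts of the lysosome: its membrane proteins, its acid hydrolases and the proton pump that acidifies it. They were taken by gene symbol from a list of named lysosomal genes. No threshold on the values was part of that choice, but it was made with earlier results of these data known. All 43 were found among the 25230 genes of the deposited table, and all 43 were among the 12506 genes tested. They comprise 5 membrane proteins, 12 cathepsins and other proteases, 8 glycosidases, 6 lipid hydrolases and their cofactors, and 12 subunits of the proton pump.

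RNA was sequenced from 6 regions of mouse liver, 3 called small tumours and 3 of normal tissue beside them. Every mouse was a male of the C57BL/6 strain, and the mice of both groups had been given diethylnitrosamine (DEN), a liver carcinogen, by intraperitoneal injection at 25 mg/kg when 14 days old. Livers were taken at 7 months as formalin-fixed, paraffin-embedded blocks, and the regions were cut out of serial sections with the Millisect dissection instrument. The lesions were picked for stacked glycogen and are labelled as tumours at an early stage, and the normal tissue therefore comes from carcinogen-treated livers too. Which animal each region came from is not stated. The p-values therefore measure only the spread between these samples, which may be partly technical, and they are too small where 1 mouse gave several regions of a group.

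The lysosome is the cell's digestive compartment, reached by endocytosis and by autophagy, and in liver it also breaks down a share of the glycogen. A V-type ATPase pumps protons inward, soluble hydrolases act at the low pH that results, and heavily glycosylated membrane proteins shield the limiting membrane. Many lysosomal genes carry the CLEAR element, a promoter sequence with the core CACGTG that is bound by the transcription factors TFEB and TFE3. Hepatocytes and the liver's resident macrophages, the Kupffer cells, are both rich in lysosomes.

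Total counts were 6352898 to 6542997 in the normal libraries and 7294716 to 7412833 in the lesion libraries. On a principal component plot of all tested genes the first component (68% of the variance) separated the groups. The second (13%) set lesion region 3, at -29.1, apart from lesion regions 1 and 2, at 13.1 and 13.9, and members are therefore given library by library. The hepatocyte markers identify all 6 libraries as liver. The 9 markers in the deposited table summed to 62530 to 67670 CPM (counts scaled to a common library total) in normal regions. In lesions the sum was 112900 to 133500 CPM. None was at 0, and 4 were called higher and 3 lower (44.4% and 33.3%, against 18.7% and 18.4% of all tested genes). Levels are CPM on TMM-scaled library sizes (TMM, the trimmed mean of M values). A gene was called at an adjusted p under 0.05 in edgeR's quasi-likelihood test over all tested genes.

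The lysosomal set did not shift as a block. In the lesions 4 members rose, Cd63, Ctsz, Atp6v0a1 and Ctsa, and 12 fell, while 27 were not called. Of all tested genes 18.7% were called higher and 18.4% lower, so the members' 9.3% higher stood below the background and their 27.9% lower above it, and the 37.2% called in either direction equalled the background of 37.1%. The median log2 fold change was -0.06 over the members and 0.003 over all tested genes. Most differences were small: the median size of change, regardless of sign, was 0.167 on the log2 scale in the members against 0.283 over all tested genes. The 3 lesion libraries all lay above the 3 normal libraries in 5 members and all lay below them in 14, and the groups overlapped in 24. Among all tested genes 24.2% had lesions wholly above, 24% wholly below and 48.2% either.

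With library size as the only scaling, the median of all genes moved to -0.14, and the members split into 3 higher and 18 lower against 11.8% and 28.9% of all tested genes. RLE scaling (relative log expression) gave 4 members higher and 12 lower, against 2356 and 2291 of 12506 genes. Upper quartile scaling gave 4 and 11, against 2365 and 2264. Among these scalings the split of calls between directions moved most with library size alone. In the rest of the text a change is relative to the TMM scaling.

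**Figure D1:**
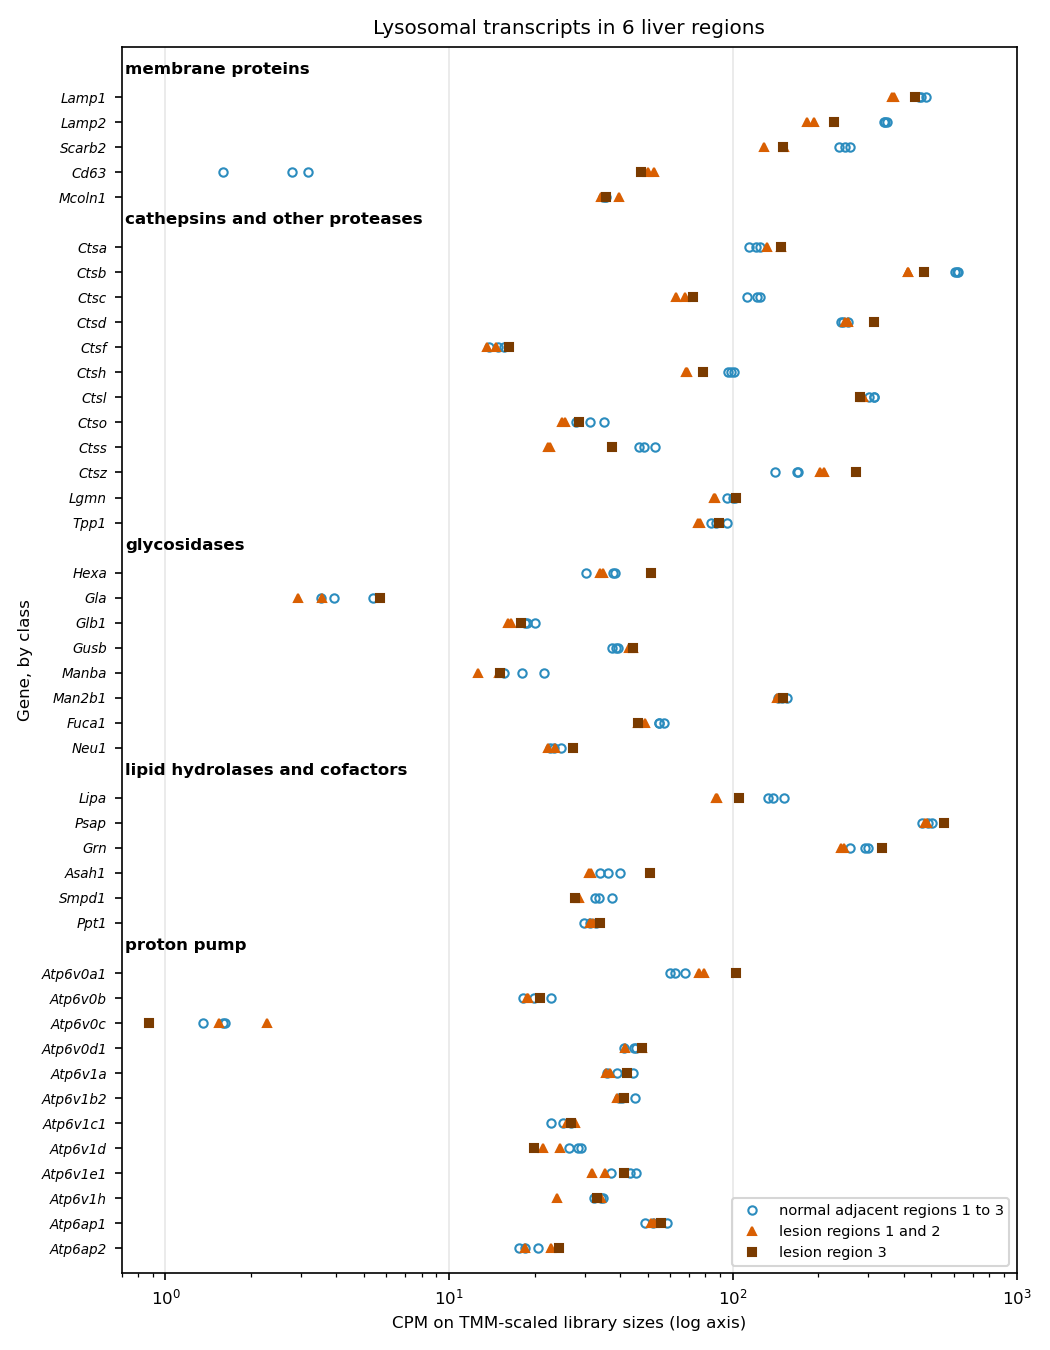
Level of each lysosomal gene in each of the 6 libraries, in CPM on TMM-scaled library sizes on a log axis, grouped by class. Cd63 is the gene whose normal points (1.60 to 3.17 CPM) lie farthest from its lesion points (47.4 to 52.7 CPM), while most other members have both groups close together.

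The promoters of the members were read from the RefSeq promoter table for GRCm38.p6, from 250 bases before to 50 after each start, in which 37 of the 43 genes had an entry. CACGTG, which is its own reverse complement and so is the same on both strands, stood in 12 of these 37 genes (32.4%) and in 2187 of all 27025 genes of the table (8.09%). The longer TCACGTGA, which contains it and is also a palindrome, stood in 6 of 37 (16.2%) against 1.12% of all genes. A still longer palindrome was also counted, in which TCACGTGA is preceded by G and followed by C. It stood in 0 of 37 members (0%) against 100 of 27025 genes (0.37%). In 5 members at least 2 matches lay close together, and those stretches are shown 5′ to 3′ on the gene's strand, with CACGTG in capitals, to let the genes that share the element be compared with what their transcripts did. The Lamp1 stretch lies at chr8:13159088-13159160 on the plus strand, Ctsa at chr2:164833749-164833795 (plus), Mcoln1 at chr8:3500436-3500491 (plus), Gla at chrX:134601182-134601244 (minus) and Atp6v0b at chr4:117887330-117887377 (minus).
Lamp1: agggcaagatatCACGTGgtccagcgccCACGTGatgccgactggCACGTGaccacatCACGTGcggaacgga
Ctsa: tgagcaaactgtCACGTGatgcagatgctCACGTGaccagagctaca
Mcoln1: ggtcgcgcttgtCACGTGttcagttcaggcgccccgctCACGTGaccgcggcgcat
Gla: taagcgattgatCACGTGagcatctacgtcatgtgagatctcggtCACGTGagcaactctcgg
Atp6v0b: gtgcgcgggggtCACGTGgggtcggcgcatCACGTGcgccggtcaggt

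Lamp1 carries 4 matches in the 73 bases before its start, and Ctsa and Gla carry 2 each, all of them within TCACGTGA. Of these 5 genes Ctsa rose, Lamp1 fell, and Mcoln1, Gla and Atp6v0b were not called. The calls of Ctsa and Lamp1 were each lost when certain single libraries were left out. Of the 12 genes with CACGTG, 1 rose, 1 fell and 10 were not called, with a median log2 fold change of -0.06. Of the 25 with a listed promoter and no CACGTG, 3 rose and 9 fell, with a median of -0.05. Among all tested genes 18.7% were called higher and 18.4% lower, and the difference between genes with and without the element was not tested. A match in these letters is a description of the sequence and not a measured binding site.

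The membrane proteins had both the steepest rise and some of the clearest falls of the set. Cd63, a tetraspanin of late endosomes, lysosomes and secreted vesicles, rose 19.8-fold. Scarb2, the receptor that carries glucocerebrosidase to the lysosome, and Lamp2, a coat protein of the limiting membrane needed for fusion with autophagosomes, each fell to about the same extent, and Lamp1, its close relative, fell less. Mcoln1, the lysosomal calcium channel, was not called. The class thus held 1 member higher and 3 lower out of 5 (20% and 60%, against 18.7% and 18.4% of all tested genes).

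Cd63 (chr10:128896231-128912822, GRCm38.p6) measured 3.17, 2.79 and 1.60 CPM in normal regions 1 to 3 and 52.7, 50.3 and 47.4 CPM in lesion regions 1 to 3. These values rest on 21, 19 and 11 reads in the normal libraries and 370, 359 and 324 reads in the lesions, so all lesion libraries were far above all normal ones and close to each other. The log2 fold change came to 4.31 ± 0.16 (SE, 3 libraries against 3), with an edgeR adjusted p of 1.07e-13, and it ranked 23rd by log2 fold change among the 12506 tested genes. Ordered by FPKM, a level per gene length, Cd63 moved from place 41 of the 43 members in normal tissue (2.07 FPKM) to place 10 in the lesions (41.0 FPKM). Of the 50-base words in its transcripts 36.5% also occur in the pseudogene Cd63-ps, so the count may hold reads of that copy, whose own level was not analysed here.

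Scarb2 (chr5:92441311-92505657) measured 236.7, 258.2 and 249 CPM in normal regions and 151.9, 128.4 and 150 CPM in lesions. The groups did not overlap, and the log2 fold change came to -0.79 ± 0.0692 (SE, edgeR adjusted p = 2.25e-08), a 1.73-fold lower level. For Lamp2 (chrX:38399647-38456460) the normal values were 341.6, 343.5 and 349.6 CPM and the lesion values 193, 182.2 and 226.7 CPM. All lesions were again below all normal regions, with region 3 the least reduced, and the log2 fold change came to -0.78 ± 0.0707 (SE, edgeR adjusted p = 5.08e-08).

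Lamp1, with the 4 CACGTG matches shown above, had 451.7, 478.3 and 461.6 CPM in normal regions and 364.8, 370.9 and 437.6 CPM in lesions, the third lesion lying close below the normal values. Its log2 fold change of -0.25 ± 0.0667 (SE, edgeR adjusted p = 0.00675) lost its call when normal region 2 (adjusted p = 0.0541), lesion 1 (0.0555) or lesion 2 (0.0523) was left out. Mcoln1 measured 35.7, 34.8 and 35.5 CPM in normal regions and 34.2, 39.6 and 35.6 CPM in lesions. Those groups overlapped, and the 95% interval of its log2 fold change ran from -0.147 to 0.24 (edgeR adjusted p = 0.729).

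**Figure D2:**
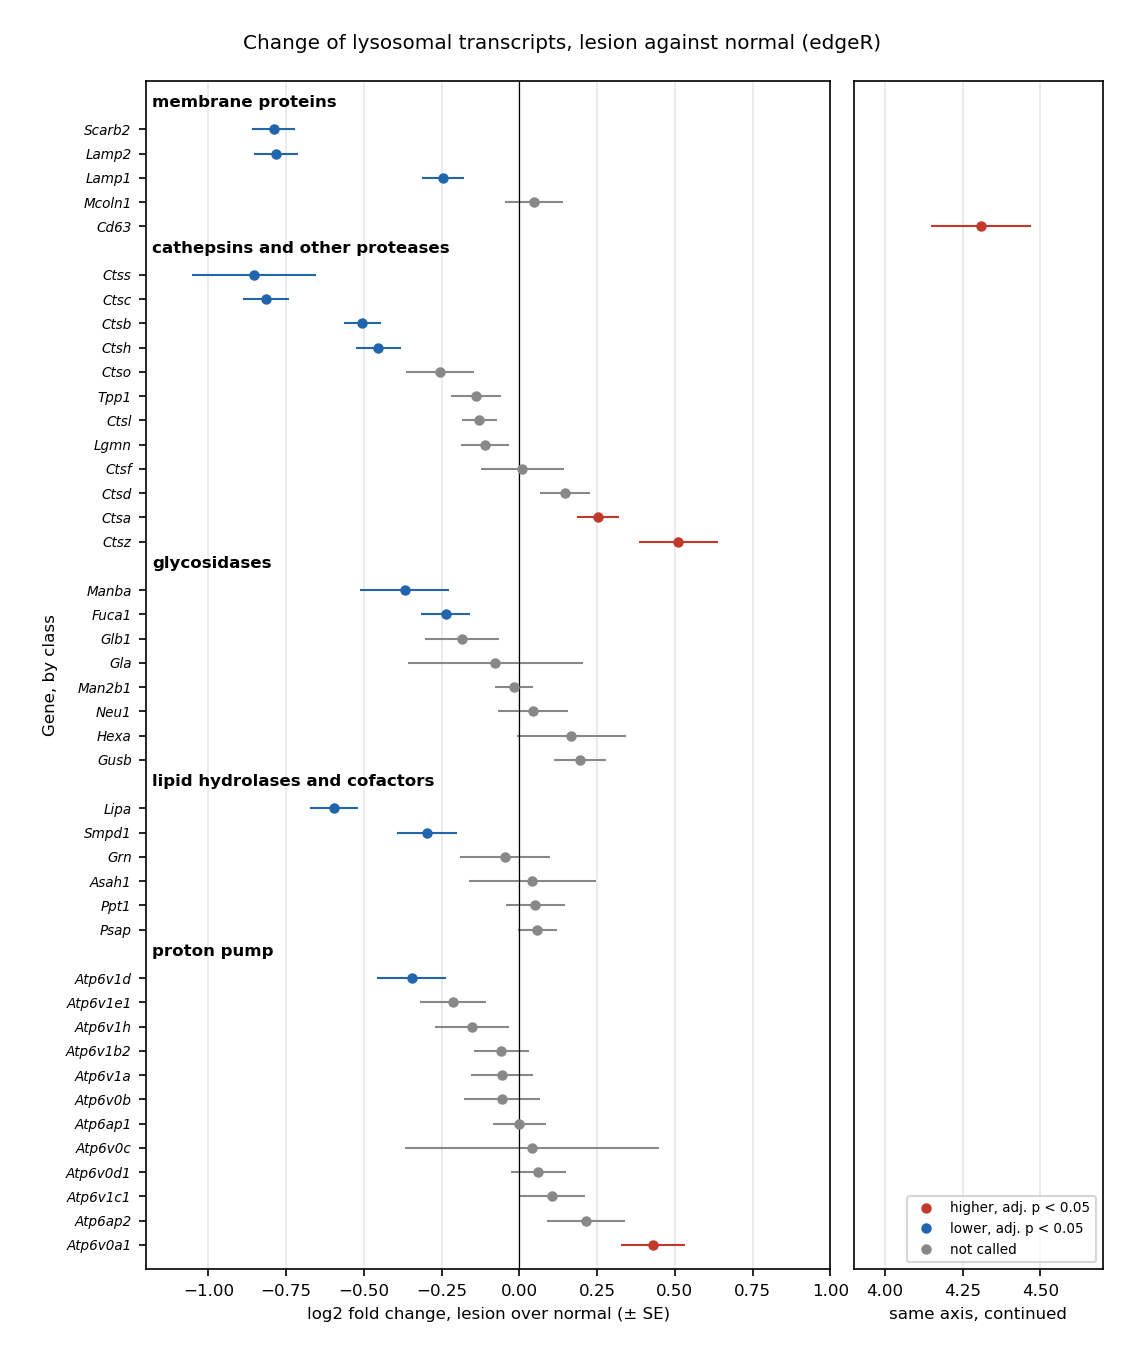
Log2 fold change of each lysosomal gene, lesion over normal, ordered within class and coloured by call. Bars are ± 1 SE from edgeR's fit on 3 against 3 libraries, and are narrower than the 95% intervals. Cd63 stands alone at 4.31, and the other called members lie between -0.85 and 0.51.

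Among the 12 cathepsins and other proteases 2 rose (16.7%, against 18.7% of all tested genes) and 4 fell (33.3%, against 18.4%). The cysteine proteases Ctsc, Ctsb, Ctsh and Ctss were lower in the lesions. Ctsz, a cysteine carboxypeptidase, and Ctsa, a serine carboxypeptidase that also stabilises the lysosomal galactosidase and sialidase, were higher. The aspartic protease Ctsd and the abundant cysteine protease Ctsl were not called.

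Ctsc, the dipeptidyl peptidase that activates granule serine proteases, measured 112.2, 124.1 and 121.3 CPM in normal regions and 68, 62.9 and 72.6 CPM in lesions. The groups were well apart, at a log2 fold change of -0.81 ± 0.0737 (SE, edgeR adjusted p = 3.70e-08). Ctsb, an endopeptidase and the fourth most abundant member per length in normal tissue (128 FPKM), had 605.7, 622.4 and 614 CPM against 412.6, 415.3 and 470.2 CPM. All lesions were lower, and Ctsb fell by 0.51 (SE 0.0599) on a log2 scale (edgeR adjusted p = 1.65e-06). Ctsh, an aminopeptidase, had 96.3, 98.1 and 100.8 CPM in normal regions and 68.5, 68.9 and 78.3 CPM in lesions, and it fell by 0.45 ± 0.0731 on the log2 scale (edgeR adjusted p = 6.49e-05). In each of Ctsb, Ctsc and Ctsh lesion 3 was the highest of the lesions and still below every normal region.

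Ctsa, whose promoter has both of its matches within TCACGTGA, had 120.8, 124.2 and 114.1 CPM in normal regions and 131.9, 148 and 147.7 CPM in lesions. The lesions were all higher, with a log2 fold change of 0.25 ± 0.0678 (SE, edgeR adjusted p = 0.0064). The call was lost without normal region 3 (adjusted p = 0.0529) and with library size as the only scaling (adjusted p = 0.193). Ctsz rose by 0.51 ± 0.126 on the log2 scale (edgeR adjusted p = 0.0162). Ctss, a protease of antigen-presenting cells, changed by -0.85 ± 0.199 (SE, edgeR adjusted p = 0.014). It measured 22.7, 22.3 and 37.5 CPM in the lesions, so that lesion 3 stood above the others, and it missed the threshold without normal region 3 (adjusted p = 0.0503).

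Ctsd had 239.7, 244.5 and 254.1 CPM in normal regions and 254.7, 247.5 and 315.5 CPM in lesions. Its groups overlapped, with an edgeR adjusted p of 0.167, and 36.6% of its 50-base words also occur in the gene model Gm49369, so reads may be split between them. For Ctsl the values were 302.6, 315.3 and 315.3 CPM against 286.8, 287 and 279.7 CPM. The lesions were all lower, yet the log2 fold change came to only -0.13 ± 0.0558 (SE, edgeR adjusted p = 0.0771). The remaining proteases, Ctso, Ctsf, the asparaginyl endopeptidase Lgmn and the tripeptidyl peptidase Tpp1, had log2 fold changes from -0.26 to 0.01 and were not called. Without lesion region 3, Ctsl, Ctso, Lgmn and Tpp1 were called lower (edgeR adjusted p from 0.00736 to 0.0312), and Ctso was also called lower without normal region 3 (0.04).

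Glycosidases trim sugars from glycoproteins and glycolipids. Of 8 members 0 rose and 2 fell (25% lower, against 18.4% of all tested genes), Fuca1, the fucosidase, and Manba, the beta-mannosidase. At an unadjusted p under 0.05 edgeR had 1 higher, the glucuronidase gene Gusb, and DESeq2 called 0 higher and 0 lower.

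Fuca1 had 55, 57.1 and 54.9 CPM in normal regions and 49.2, 46.4 and 46.2 CPM in lesions. The groups did not overlap, but the fall was small, with a log2 fold change of -0.24 ± 0.0785 (SE, edgeR adjusted p = 0.0227), and it missed the threshold without normal region 1, 2 or 3 or lesion 2 (adjusted p from 0.0501 to 0.0862). Manba had 15.6, 21.6 and 18 CPM against 12.7, 15 and 15.1 CPM, a change of -0.37 ± 0.142 (SE, edgeR adjusted p = 0.0471). It missed the threshold without normal region 2 or 3 or lesion 1 or 2 (adjusted p from 0.0709 to 0.266), and neither Fuca1 nor Manba passed in DESeq2 (adjusted p = 0.128 and 0.179).

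Man2b1, the lysosomal alpha-mannosidase, had 143.9, 149.4 and 155.3 CPM in normal regions and 143.5, 149.8 and 149.7 CPM in lesions. The groups overlapped almost fully, and the 95% interval of the log2 fold change was narrow, from -0.148 to 0.111 (edgeR adjusted p = 0.844). Hexa, the alpha subunit of beta-hexosaminidase, had 30.4, 37.9 and 38.5 CPM against 33.9, 34.7 and 51.5 CPM, with lesion 3 high and the other lesions within the normal range (edgeR adjusted p = 0.5). Gla, Glb1, Gusb and the sialidase gene Neu1 had log2 fold changes from -0.18 to 0.19. All lesions were above all normal regions for Gusb and below them for Glb1, with edgeR adjusted p of 0.0774 and 0.242.

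Of the 6 lipid hydrolases and cofactors, Lipa and Smpd1 fell (33.3%, against 18.4% of all tested genes) and none rose (against 18.7%). In this class 0 members were higher at an unadjusted p under 0.05 in edgeR or called higher in DESeq2. Lipa, the acid lipase that frees cholesterol and fatty acids from lipoproteins, had 151.8, 138.3 and 132.9 CPM in normal regions and 88, 87.1 and 104.8 CPM in lesions. All lesions were lower, with a log2 fold change of -0.60 ± 0.0783 (SE, edgeR adjusted p = 6.78e-06), a 1.51-fold lower level. Smpd1, the acid sphingomyelinase, had 37.5, 33.8 and 32.6 CPM against 28.6, 28 and 27.8 CPM, a change of -0.30 ± 0.0974 (SE, edgeR adjusted p = 0.0215). It missed the threshold without normal region 1 (adjusted p = 0.109) or lesion 2 (0.0557) and in DESeq2 (0.119).

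The cofactor genes, among the most abundant of the set, were not called. Psap, the precursor of the saposins that present lipids to hydrolases, had 462.7, 486.2 and 504.9 CPM in normal regions and 475.9, 484.7 and 552.7 CPM in lesions, with overlapping groups and a 95% interval of the log2 fold change from -0.0748 to 0.19 (edgeR adjusted p = 0.508). Per length it was second in normal tissue at 176 FPKM, after Lamp1 at 206 FPKM, and first in the lesions at 183 FPKM. Grn, which encodes progranulin, had 259.5, 298.7 and 291.3 CPM against 246.3, 240.4 and 336.1 CPM, so that lesions 1 and 2 lay below every normal region and lesion 3 above every one. Grn was not called on all libraries (edgeR adjusted p = 0.835) and was called lower without lesion 3 (log2 fold change -0.22, adjusted p = 0.000214). The acid ceramidase gene Asah1 and the thioesterase gene Ppt1 had log2 fold changes of 0.04 and 0.05 and were not called.

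Of the 12 proton pump subunits 1 rose and 1 fell, so 16.7% were called, against 37.1% of all tested genes. Its membrane sector V0, which carries the protons, had 1 of 4 subunits higher, its ATP-hydrolysing sector V1 had 1 of 6 lower, and neither of the 2 accessory subunits was called. Atp6v0a1, the V0 subunit a1 isoform, had 62.7, 68 and 60 CPM in normal regions and 79.1, 75.8 and 102.3 CPM in lesions. All lesions were higher and the third highest, with a log2 fold change of 0.43 ± 0.104 (SE, edgeR adjusted p = 0.00471). Atp6v1d, a subunit of the central rotor, had 26.5, 28.3 and 29.1 CPM against 24.6, 21.4 and 19.9 CPM, a change of -0.35 ± 0.111 (SE, edgeR adjusted p = 0.0192). It missed the threshold without normal region 2 or 3 or lesion 2 (adjusted p from 0.0596 to 0.0738) and in DESeq2 (0.102).

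Atp6v1e1, a stalk subunit of V1, had 37, 45.4 and 43.3 CPM in normal regions and 35.3, 31.8 and 41.4 CPM in lesions, with overlapping groups (edgeR adjusted p = 0.126; 0.00511 and lower without lesion 3). Atp6v0d1, which links V0 to the rotor, had 44.9, 45.4 and 41.4 CPM against 41.7, 47.8 and 47.9 CPM, also overlapping (edgeR adjusted p = 0.622). The 10 subunits not called, which also include Atp6v0b, Atp6v0c, the V1 subunits Atp6v1a, Atp6v1b2, Atp6v1c1 and Atp6v1h and the accessory subunits Atp6ap1 and Atp6ap2, had log2 fold changes from -0.21 to 0.21 and adjusted p from 0.126 to 0.999. Their 95% intervals reached from -0.811 to 0.892, both ends set by Atp6v0c, the proteolipid subunit, which had only 6 to 16 reads a library and shares 32.5% of its 50-base words with its pseudogenes. The summed FPKM of the 12 subunits was 194.8, 204.9 and 196.3 in normal regions and 189.8, 184.8 and 208 in lesions, so the groups overlapped.

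**Figure D3:**
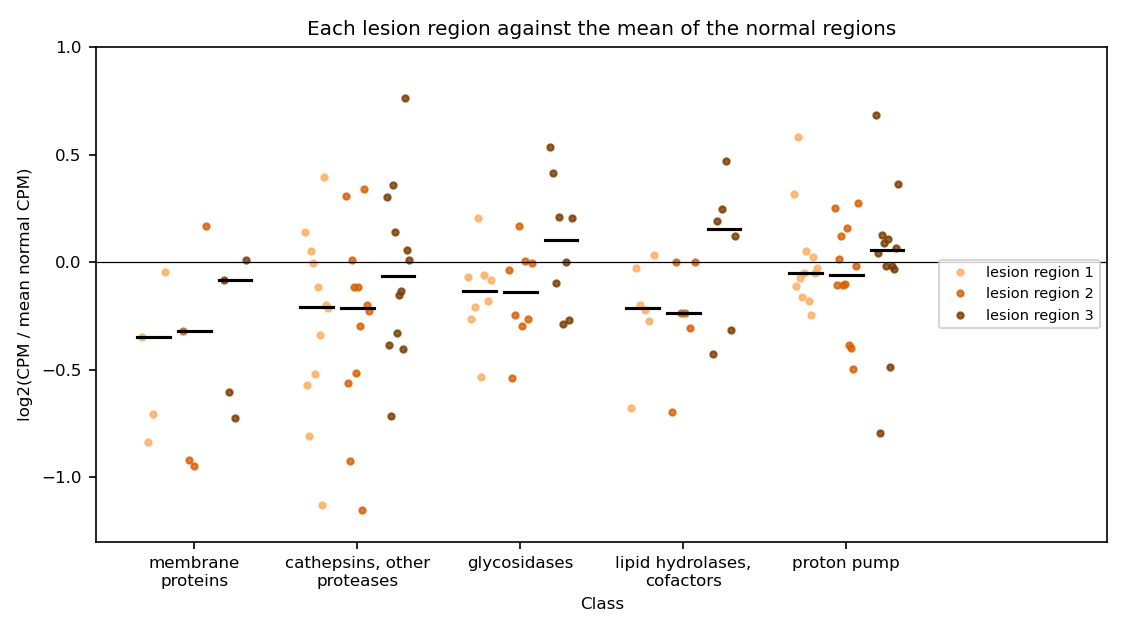
Log2 ratio of each lesion library to the mean of the normal libraries for each lysosomal gene by class, with bars at the class median; Cd63 lies above the axis in all 3 lesions. In each class the bar of lesion 3 is the highest, with medians of 0.155 for the lipid hydrolases and 0.104 for the glycosidases against -0.236 and -0.141 in lesion 2.

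The lesions differed among themselves in these genes. The median log2 ratio of the 43 members to the normal mean was -0.117 in lesion 1, -0.117 in lesion 2 and 0.0102 in lesion 3, while over all tested genes it was within 0.01 of 0 in each. Lesion 3 was the highest of the 3 lesions in 31 members (72.1%), and it was so in 38% of all tested genes. It was the lowest in 6 members (14%) against 38.2%. Without lesion 3 the count of members called lower went from 12 to 18, against 21.9% of all tested genes, and 4 were called higher, against 22%. The count went the other way without lesion 2, to 7 members lower (14.9% of all tested genes), and without normal region 2, to 8 (14%). In total FPKM the members came to 1657, 1754 and 1731 in normal regions and to 1548, 1532 and 1819 in lesions. On that scale lesions 1 and 2 lay below every normal region and lesion 3 above every one. In summed CPM they came to 4681, 4909 and 4852 in normal regions and to 4090, 4061 and 4727 in lesions. By CPM lesions 1 and 2 were again below every normal region, but lesion 3 lay within the normal range.

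Macrophage transcripts were mostly lower in the lesions. Of the 14 Kupffer cell and macrophage markers 13 fell (92.9%, against 18.4% of all tested genes), and none was at 0. The median log2 fold change was -0.58, and Aif1 was not called (-0.46). The summed level of the list was 1123 to 1181 CPM in normal regions and 695.7 to 746 CPM in lesions. Its median log2 ratio to normal was -0.675, -0.72 and -0.372 in lesions 1 to 3, nearest to normal in lesion 3. The markers were split, however: Marco and Timd4 were lowest of the lesions in lesion 3. Vsig4, Cd163 and Cd68 lay in between there, and the other markers were highest. In bulk samples fewer cells of a type and less RNA per cell cannot be told apart, and the part of macrophages in the falls of Ctss, Ctsc, Lipa, Lamp2 and the other members was not tested. Of 10 endothelial markers 3 rose and 1 fell (30% and 10%, against 18.7% and 18.4% of all tested genes). They summed to 736.1 to 754.5 CPM in normal regions and 737.6 to 782 CPM in lesions, none at 0. Of 10 stellate cell and fibroblast markers 4 rose and 1 fell (40% and 10%), with sums of 343.5 to 352.8 against 393.5 to 439.2 CPM, none at 0.

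Of 6 biliary markers 2 were tested, Sox9 and Spp1, and both rose (against 18.7% of all tested genes called higher). The list summed to 28.2 to 29.1 CPM in normal regions and 129.4 to 169.5 CPM in lesions, with Krt7 and Cldn7 at 0 in some libraries. Of 11 monocyte, neutrophil and dendritic markers 3 were tested and 0 called by edgeR, with 0 at an unadjusted p under 0.05 (19.1 to 22.5 against 16.5 to 18.9 CPM, Ly6g at 0 in every library and Chil3 in some). Of 11 T, B and NK cell markers 2 were tested and 0 called, with 0 at an unadjusted p under 0.05 (10.2 to 12.9 against 12 to 13.5 CPM, Ms4a1 at 0 in some). The part of any of these cells in the members' changes was not tested.

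**Figure D4:**
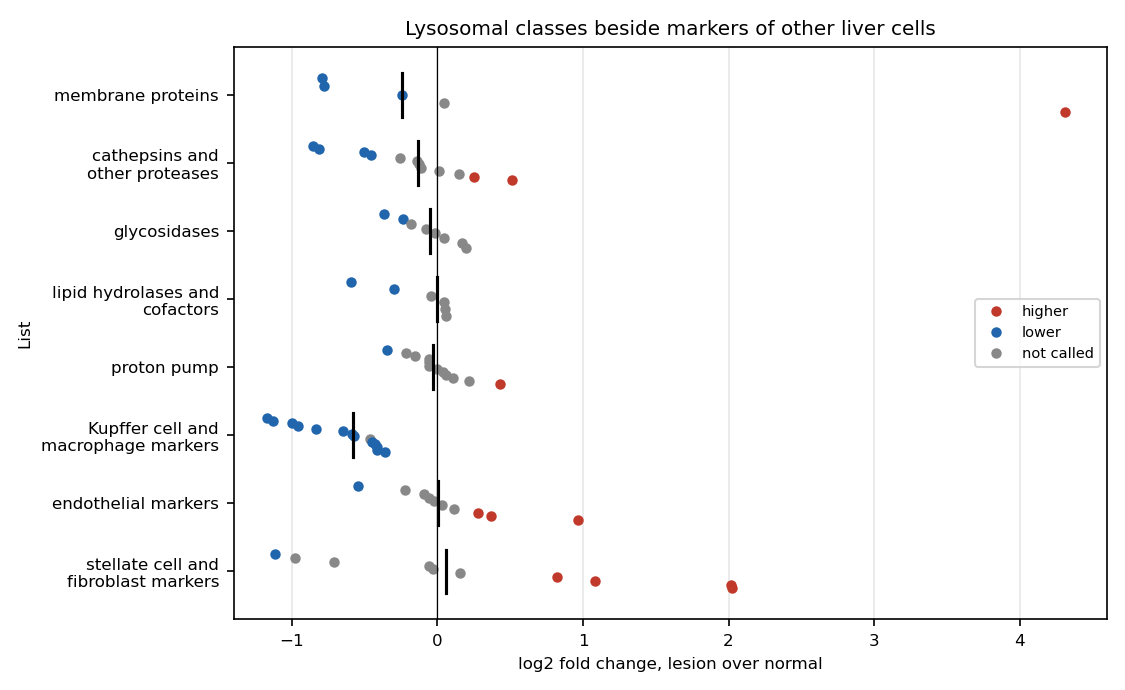
Log2 fold change, lesion over normal, of every tested gene in the 5 lysosomal classes and in 3 lists of cell markers, coloured by edgeR call, with a bar at each list's median. The Kupffer cell and macrophage list is centred at -0.58, below the median of each lysosomal class, and Cd63 is the point at 4.31.

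Further lysosomal genes were called about as often as genes at large. Of 123 in the deposited table, 108 were tested, and 20 rose and 20 fell (18.5% each way, against 18.7% and 18.4% of all tested genes), with a median log2 fold change of 0.01. Among 23 other glycosidases and sulfatases 6 rose and 3 fell: the hyaluronidase gene Hyal1 had a log2 fold change of -1.01 (edgeR adjusted p = 1.74e-08), while the mannosidase gene Man2b2 (0.75) and the sulfatase gene Arsg (1.29) rose. Among 24 other membrane proteins and transporters 3 rose and 6 fell, with the blood-cell lysosomal protein gene Laptm5 at -0.68, the two-pore channel gene Tpcn1 at -0.41 and the lysophospholipid transporter gene Spns1 at 0.50. Of 11 other lipases, nucleases and phosphatases 2 rose and 3 fell, among them Plbd1 (-1.05), Smpdl3a (-0.72) and Plbd2 (0.44). Of 7 other proteases only Scpep1 was called, and it rose by 0.37 on the log2 scale (edgeR adjusted p = 0.0376), though it was not called in the authors' deposited table (adjusted p there = 0.11).

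For the pump, 1 of 15 further subunits and assembly factors rose and 4 fell (6.67% and 26.7%, against 18.7% and 18.4% of all tested genes). Dmxl2 and Wdr7, whose products form the complex that assembles V1 onto V0, had log2 fold changes of -0.64 and -0.34 (edgeR adjusted p = 3.40e-06 and 0.00168). Atp6v0d2, an isoform of the d subunit known from osteoclasts, rose from 2.72, 1.62 and 1.60 CPM to 4.42, 3.92 and 4.98 CPM (log2 1.16, edgeR adjusted p = 0.00482). Of 17 sorting receptors, adaptors and protease inhibitors 4 rose and 2 fell (23.5% and 11.8%). Among them were the endocytic receptor gene Lrp1 at -0.36 and the adaptor genes Ap1g1 at -0.29 and Ap3d1 at 0.26.

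Regulators of lysosomal genes were tested as well, and 3 of 11 rose and 2 fell (27.3% and 18.2%, against 18.7% and 18.4% of all tested genes). Tfe3, one of the factors that bind the CACGTG element, had 33.1, 34.7 and 31.7 CPM in normal regions and 39.6, 42.7 and 39.4 CPM in lesions, all lesions higher (log2 0.29 ± 0.0904 SE, edgeR adjusted p = 0.0158), but it was not called in the authors' deposited table (adjusted p there = 0.101). Its relatives Tfeb and Mitf were not called, with log2 fold changes of -0.16 and -0.17 (edgeR adjusted p = 0.407 and 0.539). Flcn, which encodes folliculin, had 36.1, 35.8 and 40.8 CPM against 47.4, 48.9 and 48.4 CPM (log2 0.36, edgeR adjusted p = 0.00282). Its partner genes went in opposite directions, Fnip2 by 0.39 and Fnip1 by -0.69 on the log2 scale. Rragd, a Rag GTPase gene named here after its values were seen, had 0.756, 2.50 and 2.47 CPM in normal regions and 7.98, 9.94 and 42 CPM in lesions. All lesions were higher and lesion 3 far above the others, and the log2 fold change of 3.36 ± 1.12 (SE) was not called by edgeR (adjusted p = 0.087). In the authors' deposited table Rragd was called higher (adjusted p there = 0.0015). These are transcript levels, and the activity of TFE3, which is set by its location in the cell, was not measured.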

How the data were processed

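Ribosomal-RNA-depleted total RNA of 6 dissected formalin-fixed regions was sequenced, 3 normal and 3 lesion. The submitters' processing notes name STAR 2.5.2b, cutadapt 1.18, DESeq2 1.24.0 and CASAVA 1.8, without their roles, and the mouse build mm10. How reads were counted, against which annotation and with what strand setting is not given in the sources used here, so reads of overlapping genes on opposite strands could share a count. For each library the authors deposited counts, as whole numbers per Entrez gene, and FPKM values. The deposited table also holds the authors' mean normalised signal, log2 fold change with its standard error, test score and p-values. That table, the authors' deposited table, calls 4 members higher and 8 lower, the same call as edgeR in 39 of 43. Of the 14151 genes with an adjusted p there, it calls 12.1% higher and 11.2% lower.

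From the counts, genes kept by edgeR's default expression filter were scaled by TMM and tested with the quasi-likelihood test, two-sided and robust, on group alone, and p-values were adjusted by Benjamini-Hochberg over every tested gene (edgeR 4.0.16, R 4.3.3). SE is the log2 fold change over the square root of F. The 95% intervals use the fit's total degrees of freedom, the residual ones plus those that edgeR borrows across genes. The procedure was tested on simulated data. FPKM served to compare levels between genes. Replicates within a group differed by more than sampling noise and were each counted. Read counts carry no molecular identifiers, so counting error is understated. Coordinates and promoters are RefSeq's for GRCm38.p6, matched by Entrez ID for all 43 members. Sharing of 50-base words was computed on GENCODE transcripts.

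The members and all lists were chosen with earlier results of these data known. Values in every library are printed, in each class, for up to 4 called members with the lowest p and up to 2 uncalled members with the highest FPKM, and the lesion values of Ctss were added after seeing them. From each other list up to 3 called members with the lowest p are named, plus Tfeb, Tfe3, Mitf and Flcn. The cell markers were not chosen to exclude lysosomal genes, and Cd68 stands in both a marker list and a membrane protein list. Alternatives were other scalings, filters, thresholds and pseudocounts, DESeq2 1.42.0, limma 3.58.1 (voom, and trend on log2 FPKM), a gene length correction, a replicate block and leaving out libraries.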

Additional observations from a re-analysis of the deposited data

How the results depend on the processing

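Over 26 alternative settings, 7 of the 16 called members kept their call in every one (Cd63 higher; Lamp2, Scarb2, Ctsb, Ctsc, Ctsh and Lipa lower), as did 18 of the 27 not called. The replicate numbers did not pair the samples: deviations of same-numbered libraries correlated at 0.0112, -0.0205 and -0.0219, and 2 of 6 libraries correlated best with their own number. With the numbers as a block, 4 members were higher and 12 lower, and 2293 genes higher and 2233 lower in all. Scaling by library size alone gave 1474 genes higher and 3615 lower (main values 2340 and 2296), 1 protease higher and 8 lower, and 2 pump subunits lower. At a threshold of 0.01, 1548 of the 12506 tested genes were higher and 1570 lower. There 7 members were lower, 1 protease was higher, and 0 glycosidases, 1 lipid hydrolase and 0 pump subunits were lower. At 0.1 there was 1 glycosidase higher, with 2824 genes higher and 2769 lower in all. DESeq2 gave 1717 genes higher and 1577 lower in all, with 0 glycosidases, 1 lipid hydrolase and 0 pump subunits lower. An alternative chosen after seeing the data summed the closest pair of libraries in each group (normal 2 and 3, lesion 1 and 2). It gave 4 members higher and 6 lower, against 1607 genes higher and 1595 lower of 13212 tested. The members lower held 0 glycosidases, 1 lipid hydrolase and 0 pump subunits. Glycosidases lower numbered 1 with upper quartile scaling, a non-robust fit, limma-voom and each of the 3 FPKM fits, and with FPKM plus 1 over all genes with a count 0 pump subunits were higher.

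Leaving out 1 library or 1 replicate number gave 3 to 4 members higher and 6 to 18 lower. By class the ranges were 1 to 1 higher and 2 to 3 lower (membrane proteins), 1 to 2 and 3 to 8 (proteases), 0 to 0 and 0 to 2 (glycosidases), 0 to 0 and 1 to 4 (lipid hydrolases) and 1 to 1 and 0 to 2 (pump), and over all genes 1349 to 2798 higher and 1352 to 2796 lower. For Asah1 the log2 fold change then ranged from -0.286 to 0.231, and it reversed to -0.286 without replicate 3 of both groups (edgeR adjusted p = 0.0237). Where the cause of a change is not given by fewer libraries or a stricter threshold, the cause was not tested. Depth limits the low members, above all Atp6v0c, which the filter of 20 counts removed.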
